A study of Mus musculus with 12 samples.

Results

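The genes described here are the very long genes of the mouse genome that were expressed in airway organoids. A gene was included when the coordinates listed with it spanned at least 400 kb, when at least 10 normalized counts were measured in at least 6 libraries, and when its name did not begin with Sema, Plxn, Slit, Robo, Ntn, Unc5, Eph, Itg or Lam. Of 55401 genes listed, 380 spanned at least 400 kb and 154 of these passed the count rule. After 6 genes were left out by name (Sema5a, Sema6d, Sema3a, Robo1, Robo2 and Ephb1), 148 long genes remained, among 13792 genes tested. The members were chosen by their listed span and selected on their normalized counts, not on the response to ablation, but the group was proposed after results of the same libraries were known.

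The organoids were grown from airway cells of adult C57BL/6J mice of both sexes and carried a lentiviral Histone2A-mCherry reporter under the p63 promoter, which was amplified from human DNA. All groups shared this reporter and the same medium. In the ablation group, 10 neighboring cells were removed from each organoid with a femtosecond laser, and RNA was collected 4.5 h later from dishes of 45 organoids. The control group was not irradiated. Each group held 6 libraries, numbered 1, 3, 4, 5, 6 and 7, and an ablation and a control library of the same number shared passage, culture day (14 to 20 over the pairs) and date. Pairs 1, 3 and 5 formed library set 1 and pairs 4, 6 and 7 formed library set 2, as read from the library numbers. The titles of controls 4, 6 and 7 contain the word ablation although their treatment label says control, and they were used as controls. By their titles, pairs 1 and 3 shared a passage, as did pairs 4 and 5, and pairs 6 and 7. Within each of these, date and culture day count back to the same start. The tests below treat the pairs as independent, which they may not be. The labels do not say whether pairs came from separate animals, so p-values measure the spread between these samples.

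Transcribing a long gene takes RNA polymerase II far longer than transcribing a short one, because the polymerase must cross every intron before the transcript is finished. Long genes of mammals are often active in neurons and muscle, and many code for adhesion proteins, ion transporters, scaffold proteins and transcription regulators. Several, such as Fhit, Wwox, Immp2l and Dmd, lie in common fragile sites, regions prone to breaks when replication is disturbed. The sequencing counted here came from poly(A) RNA and was assigned to exons, so a count reports finished transcripts and not the passage of polymerases.

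The 148 long genes lay on 20 chromosomes, 77 of them on the plus strand, and 144 were annotated as protein coding. Their spans ran from 400436 bases (Dst) to 2960899 bases (Fgfr2), with a median of 538514 bases, and 20 genes spanned at least 1 Mb. Exons took up a median of 1.79% of the span, from 0.0925% in Fhit to 10.4% in Dst, against 21.4% in the 13638 shorter genes tested. The median of the longest intron was 147304 bases. The summed exon length was nevertheless larger than in other genes, with a median of 11574 bases against 4067 bases.

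To show the scale of these genes, 30 bases of the mature transcript are given across the longest intron of the principal transcript, for 5 long genes on which the comparison with control turned and for Slc7a11, whose principal transcript is much shorter than its listed span. Sequences are from GENCODE M21 on build GRCm38, 5′ to 3′, with the last 15 bases before the intron in lower case and the first 15 bases after it in capitals.
Slc9a9: ctgtgtggtcataggGTTAATTATGTACGG
Tenm4: tactgcttggggactATGGACAGTCTGAGG
Ptprg: actgggcgtattctgGTGCCTATGGTCCTG
Exoc4: ccatccattactgagATTTATTCAGGAGAT
Kif26b: cccctcccgggaaagGACCCTGCTTTCTCT
Slc7a11: agacaaccctgaaaaAACCATCCCCCTTGC
In Slc9a9 these neighboring bases are separated by intron 4 of the plus strand, chr9:94712972-94809926, of 96955 bases. In Tenm4 they flank intron 1 (plus strand, chr7:96211991-96355355, 143365 bases). In Ptprg they flank intron 2 (plus strand, chr14:11721220-11952715), which at 231496 bases took up 33.6% of the transcript's span. In Exoc4 they flank intron 10 (plus strand, chr6:33580079-33757966, 177888 bases), and in Kif26b intron 2 (plus strand, chr1:178530791-178678825, 148035 bases). In Slc7a11 the longest intron of the principal transcript, intron 6 (minus strand, chr3:50384168-50417987), held 33820 bases.

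The listed span is that of all annotated transcripts together, and for some members it rests on an end that only some of these transcripts have. RefSeq listed 147 of the 148 genes and gave 9 of them a span under 400 kb. Fgfr2, the fibroblast growth factor receptor with the longest listed span, spans 104357 bases in RefSeq, and Slc7a11 spans 134151 bases there against 551088 listed. The transcript that GENCODE marks as principal spanned at least 400 kb in 114 of the members, less in 30, and 4 had none. Pcdh7, a protocadherin, has a principal transcript of 11445 bases, and Thsd4 one of 171501 bases. These members were kept, since the rule uses the listed span, and some values for the 114 genes alone are given below. Exons of 85 members overlapped no exon of another gene, and in 6 members over 10% of the exon bases did. The share was highest in Tshz2 (67.5%), Gm37240 (60.2%) and Schip1 (39.1%), and was 21.1% in Pcdh7. In Gm37240 and Schip1 the overlap was with genes of the same strand. How the counting treated strand is not given in the sources used here, so reads of overlapping genes cannot be told apart.

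Long genes were expressed at low to moderate levels. Their mean normalized count over the 12 libraries had a median of 302.4, against 781.2 for the shorter genes. Per kb of exon, the median was 34.0 normalized counts in long genes and 172.5 in shorter genes. Together the long genes held 0.50% to 0.59% of all counts of a library. The count rule was met in all 12 libraries by 129 members, while 19 members reached 10 counts in 6 to 11 libraries only. Each of the 148 reached 10 counts in at least 1 library of both groups.

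The 8 members with the highest counts were Dst, Slc7a11, Pcdh7, Snd1, Ptprk, Pard3, Ptprd and Nfib. Dst, which codes for the cytoskeletal linker dystonin that anchors keratin filaments in basal cells, stood far above the rest in count, with a mean of 28058 normalized counts. Per kb of exon it had 674.2, and the next among these 8 were Snd1, a nuclease-domain RNA-binding protein, at 556.7, Pcdh7 at 515.4 and Slc7a11 at 457.9. Of all members the highest per kb was Gphn, which codes for the inhibitory synapse scaffold gephyrin, at 694.7, and Gmds, an enzyme of GDP-fucose synthesis, had 459.1. The polarity gene Pard3 had 330.7 and the transcription factor gene Nfib 310.1 per kb. At the other end, Akap6, an anchoring protein of protein kinase A best known in muscle, had the lowest mean count of the members, 10.1. The longest members by listed span were Fgfr2, Ptprd, Dmd, Macrod2, Fhit and Rbfox1, and all but the first pair had mean counts under 300: Dmd had 276.7, Macrod2 121.9, Rbfox1 68.4 and Fhit 17.8.

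Libraries were read to a like depth. In the 9 libraries whose whole read counts could be recovered from the normalized values, between 23631212 and 29775699 reads were assigned to genes, and the normalized counts of the 12 libraries summed to 27297950 to 28504390. Basal cell markers were at very high levels (all 10 of 10 tested, summed normalized counts 544821 to 708343 after ablation and 542929 to 674774 in control). Of the multiciliated markers 4 of 8 passed the count rule and of the secretory markers 5 of 8, while Foxj1 averaged 9.87 normalized counts and Scgb1a1 averaged 3.30. The summed multiciliated markers were 10365 to 14230 after ablation, against 10720 to 15532 in control, and the summed secretory markers 27691 to 81268 against 33110 to 68947. Of 10 fibroblast and other stromal markers 2 passed (summed 195.9 to 499.3 and 226.8 to 455.7), of 6 immune markers 3 (141.5 to 183.0 and 144.3 to 224.3), and of 6 endothelial markers none (2.96 to 8.77 and 4.67 to 16.4). Cldn5, Emcn, Kdr and Bpifb1 were listed at 0 in all libraries. The ranges of the groups overlapped for each of these 6 lists, and their part in the results below was not tested. In bulk RNA, fewer cells of a type and less RNA per cell cannot be told apart. Trp63, the basal cell regulator whose promoter drives the reporter, was the only listed marker past the threshold in the paired model described next, where it was 0.39 higher on the log2 scale (adjusted p = 0.00825, limma).

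The main comparison asked whether transcripts of long genes differed 4.5 h after ablation. Log2 fold changes are ablation over control on the scale log2(normalized count + 1). They were tested with limma across all 13792 genes in a model of condition and library set, and adjusted by the Benjamini-Hochberg method at a threshold of 0.05. In this model no gene passed (0% of genes tested), and thus none of the 148 long genes, while 1083 genes (7.85%) and 31 long genes (20.9%) had an unadjusted p under 0.05. On the 9 libraries with recovered reads, edgeR called 0 genes of all (0%), while 24 long genes (16.2%) had an unadjusted p under 0.05 in it, against 5.85% of all genes. DESeq2 called 1 long gene there (1.28% of the long genes to which it gave an adjusted p). Of all genes it called 11 of the 9513 to which it gave an adjusted p (0.116%). Many of the 148 long genes, Ppp2r2b among them, were given none. Of the 31 in the limma model, 23 were lower and 8 higher after ablation, against 3.7% of all tested genes lower and 4.15% higher. The paired model, in which the pair takes the place of the library set, gives the same fold changes. Its errors were smaller in many long genes but larger in others, such as Fhit (SE 0.224 against 0.212). It called 150 genes (1.09%), of which 12 were long genes (8.11% of the 148). Of these, 9 fell and 3 rose, while 0.413% of all tested genes fell and 0.674% rose. All 12 had the same direction in 6 of 6 pairs. Without pair 4 the paired model called 8 genes in all (0.058%) and 0 long genes, with 46 long genes (31.1%) at an unadjusted p under 0.05, against 13.6% of all genes.

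**Figure D1:**
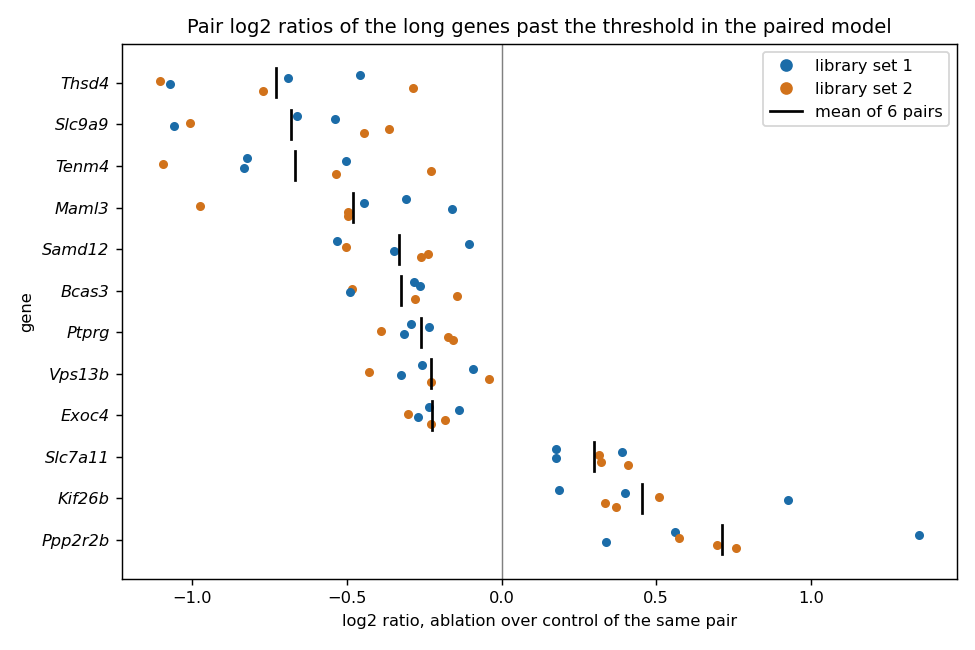
Log2 ratio of the normalized count (plus 1) after ablation over that in the control of the same pair, for the 12 long genes past the threshold in the paired model. Points are the 6 pairs, coloured by library set, and black bars are their means. All 6 points of each gene lie on one side of 0, with 9 genes to the left and 3 to the right.

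Slc9a9 codes for a sodium and proton exchanger of endosomes. The gene (ENSMUSG00000031129.9, GRCm38 chr9:94669909-95230445, plus strand) spans 560536 bases. In control, its normalized counts were lowest at 885.6, with a median of 1007 and a highest value of 1125. After ablation the lowest was 435.5, the median 631.3 and the highest 866.9. Every ablation library was therefore below every control library. The log2 fold change was -0.68 ± 0.089 (SE, paired model, n = 6 pairs), with an adjusted p of 0.00899 in the paired limma model and 0.187 with the library set alone. The pair ratios ran from -1.06 in pair 5 to -0.36 in pair 6.

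Tenm4 codes for a teneurin, a large cell surface protein that takes part in contacts between cells. The gene (ENSMUSG00000048078.16, chr7:96171246-96911093, plus strand) spans 739847 bases. Control libraries had 1005 to 1422 normalized counts with a median of 1173, and ablation libraries 572.0 to 915.2 with a median of 765.2, so the groups did not overlap. The log2 fold change was -0.67 ± 0.095 (SE, n = 6 pairs) with an adjusted p of 0.0131 in the paired limma model. With the library set alone the adjusted p was 0.138, the lowest of the long genes. Tenm4 also passed in DESeq2 on the 9 libraries with recovered reads (adjusted p = 0.00528). It was the only one to do so among the long genes given an adjusted p there. Its ratio was smallest in pair 6 (-0.23) and largest in pair 4 (-1.10).

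Ptprg, a receptor-type tyrosine phosphatase of the cell surface, spans 688509 bases on chromosome 14 (chr14:11553532-12242041, plus strand). Its control values were close together, from 1623 to 1748 with a median of 1663 normalized counts. After ablation they ran from 1251 to 1494 with a median of 1417, again with no overlap. The log2 fold change was small, -0.26 ± 0.043 (SE, n = 6 pairs), with an adjusted p of 0.0137 in the paired model and 0.187 with the library set. Exoc4 codes for a subunit of the exocyst, the complex that tethers secretory vesicles to the plasma membrane, and spans 724894 bases (chr6:33249085-33973979, plus strand). Control values were 1937 to 2287 (median 2145) and ablation values 1653 to 1920 (median 1872), so these groups did not overlap either. The log2 fold change was -0.23 ± 0.038 (SE, n = 6 pairs), with an adjusted p of 0.0151 and, with the library set, 0.291.

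**Figure D2:**
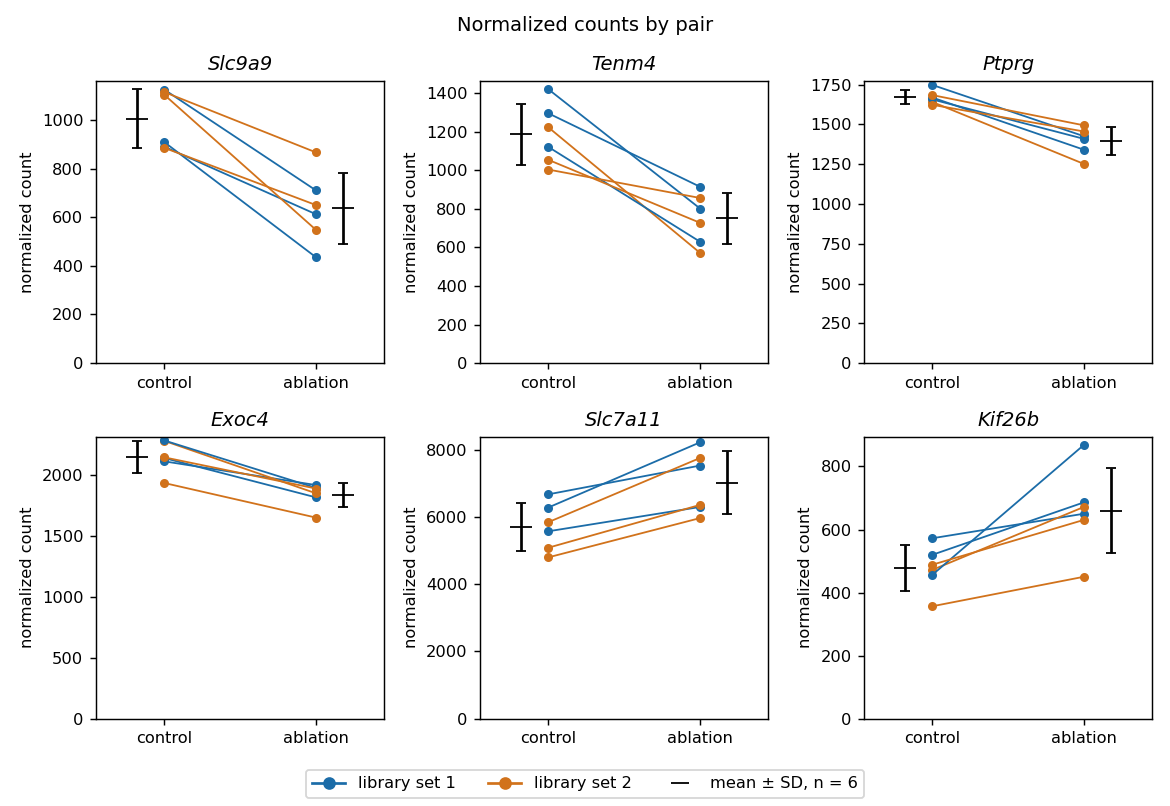
Normalized counts of 6 long genes in each library, with lines joining the control and the ablation library of a pair, coloured by library set, and black bars giving the mean ± SD of 6 libraries. The ablation libraries of Slc9a9, Tenm4, Ptprg and Exoc4 lie below all control libraries, while those of Slc7a11 and Kif26b rise within each pair but overlap the control range.

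In the remaining 5 genes that fell, the groups overlapped although each pair moved the same way. Thsd4 (chr9:59966931-60522046, minus strand), a thrombospondin repeat protein of the matrix that binds fibrillin, had the largest fall of the 12 genes, -0.73 ± 0.11 (SE, n = 6 pairs). Its values were 186.3 to 472.1 in control (median 307.0) and 114.9 to 387.0 after ablation (median 163.1), with an adjusted p of 0.0101 in the paired limma model. Pair 6 had the highest Thsd4 count of both groups. Maml3 (chr3:51685907-52105076, minus strand), a coactivator of Notch target genes, had 362.8 to 500.9 in control (median 423.8) and 219.7 to 403.6 after ablation (median 305.7). Its log2 fold change was -0.48 ± 0.090 (SE, n = 6 pairs) with an adjusted p of 0.0245, and pair 4 had the steepest ratio, -0.97.

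Samd12 (chr15:53453810-53902537, minus strand), named for its sterile alpha motif domain, ran from 1964 to 2603 in control (median 2376) and from 1389 to 2206 after ablation (median 1837). Its log2 fold change was -0.33 with an adjusted p of 0.0137 in the paired limma model. Bcas3 (chr11:85353167-85826058, plus strand), a protein linked to cell polarity and the cytoskeleton in moving cells, had 747.1 to 979.6 in control (median 854.2) and 620.4 to 804.2 after ablation (median 656.3), at a log2 fold change of -0.33 (adjusted p = 0.0153). Vps13b (chr15:35371160-35931229, plus strand), a lipid transfer protein of the Golgi, had 2250 to 2649 in control (median 2585) and 1966 to 2516 after ablation (median 2148). Its log2 fold change was -0.23 and its adjusted p of 0.0488 was the nearest to the threshold. These 3 genes had smaller fold changes than Slc9a9 and Tenm4, and their ratios were alike across pairs, with SDs of 0.14 to 0.16 against 0.29 for Slc9a9 and 0.31 for Tenm4.

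The other 3 of the 12 genes rose. Slc7a11 (chr3:49892526-50443614, minus strand) codes for the cystine and glutamate antiporter, which supplies cystine for glutathione. Its counts were 4805 to 6683 in control (median 5718) and 5975 to 8233 after ablation (median 6954), so the ranges overlapped. The log2 fold change was 0.30 ± 0.041 (SE, n = 6 pairs), with an adjusted p of 0.00899 in the paired model and 0.486 with the library set. By its RefSeq span it would not have been a long gene. Ppp2r2b, on chromosome 18, codes for a regulatory subunit of protein phosphatase 2A and rose from a control median of 178.9 (124.5 to 289.5) to 284.1 (202.4 to 427.0), at 0.71 ± 0.11 on the log2 scale (SE, n = 6 pairs, adjusted p = 0.0120). Kif26b (chr1:178529125-178939200, plus strand), a kinesin-like protein of noncanonical Wnt signaling, had 356.6 to 572.3 in control (median 480.2) and 450.2 to 869.2 after ablation (median 661.1). Its log2 fold change was 0.45 ± 0.081 (SE, n = 6 pairs) with an adjusted p of 0.0216.

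Each of the 12 genes moved 1 way in all 6 pairs, so their direction was necessarily the same in each library set taken alone. This is not separate evidence. In library set 1 Slc9a9 and Tenm4 passed the threshold on their own (adjusted p = 0.0389 and 0.0156, paired limma), and in library set 2 Slc7a11, Ppp2r2b and Maml3 did (0.0194, 0.0264 and 0.0300). Of all genes tested, 0.116% passed in set 1 and 0.79% in set 2. The log2 fold change of Maml3 was -0.30 in set 1 and -0.66 in set 2, whereas that of Thsd4 was -0.74 and -0.72. The difference in response between the sets was tested as an interaction within pairs, in which 0 long genes passed and 7 (4.73%) had an unadjusted p under 0.05, against 7.88% of all genes and 1 gene of all (0.00725%) past the threshold. Without pair 4, the adjusted p of the 12 genes lay between 0.0512 (Tenm4) and 0.169 (Vps13b). Exoc4 (0.0520) and Bcas3 (0.0562) also missed the threshold without pair 5. Maml3 passed in 2 of the 6 fits that leave out a pair, without pairs 1 and 5, and Vps13b in 1, without pair 6. With plain moderation of the variances, without trend and robust estimation, the adjusted p of the 12 genes in the paired model was 0.121 to 0.196. The fold changes themselves changed less on leaving out a pair: that of Slc9a9 stayed between -0.74 and -0.60 and that of Tenm4 between -0.76 and -0.58.

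Of all long genes, the 12 included, 18 (12.2%) were lower in all 6 pairs, against 4.63% of all tested genes, and 8 (5.41%) were higher in all 6 pairs, against 5.17%. In 5 long genes (3.38%) all ablation libraries were below all control libraries, against 0.21% of all tested genes. The fifth of these beside Slc9a9, Tenm4, Ptprg and Exoc4 was Trappc9, a subunit of a tethering complex of the Golgi, with 742.8 to 807.8 normalized counts in control and 630.4 to 741.5 after ablation (adjusted p = 0.0644, paired limma). No long gene had all ablation libraries above all control libraries, against 0.247% of all genes. At an unadjusted p under 0.05 in the paired model there were 48 long genes (32.4%, against 17.6% of all genes), 35 lower (23.6%, against 8.86%) and 13 higher (8.78%, against 8.78%). Without pair 4, these were 31 lower (20.9%, against 6.59%) and 15 higher (10.1%, against 7.04%).

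Some of the largest differences were in genes with few counts. Csmd2, a complement control domain protein, had the largest rise of all members, at 0.86 ± 0.27 on the log2 scale (SE, n = 6 pairs). It rested on 3.07 to 11.7 normalized counts in control and 8.77 to 22.5 after ablation, and did not pass (adjusted p = 0.128, paired limma). Among other genes with 1 direction in all pairs were Snhg14, a noncoding host gene of small nucleolar RNAs, at 0.57 (adjusted p = 0.120), Thsd7a, a thrombospondin repeat protein, at 0.52 (0.139) and Khdrbs2, an RNA-binding protein, at -0.37 (0.191). Anks1b had the lowest log2 fold change, -0.81, with 5 of 6 pairs lower and an adjusted p of 0.223. The genes that varied most between pairs were Grm8, Esrrg, Anks1b, Xkr4 and Zfpm2, with mean counts from 11.4 to 24.4. The SD of the pair log2 ratios was 1.28 in Grm8, a glutamate receptor, where ratios ran from -2.02 in pair 4 to 1.83 in pair 5.

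**Figure D3:**
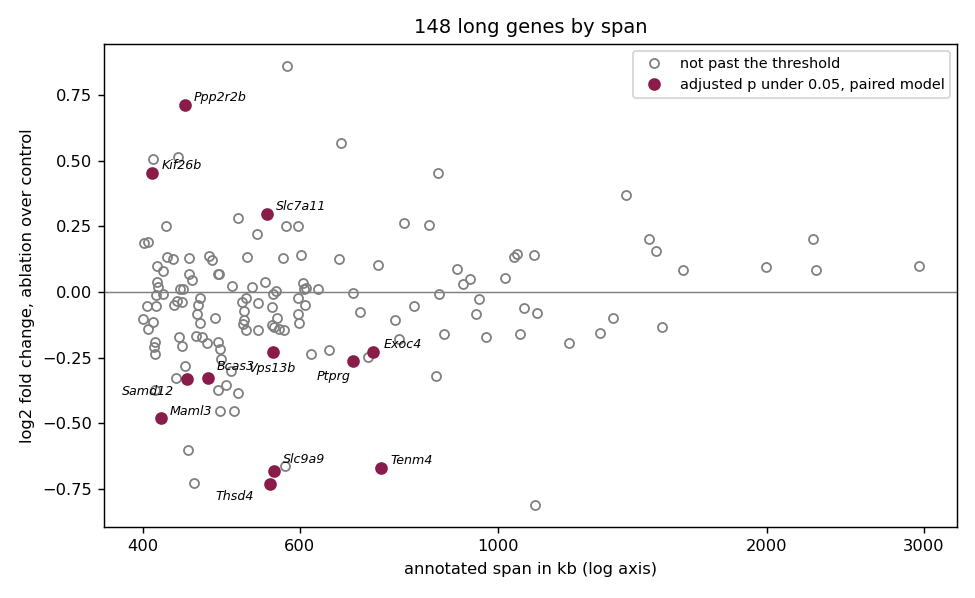
Log2 fold change (ablation over control) of the 148 long genes against their annotated span in kb on a log axis, with filled points for the 12 genes at an adjusted p under 0.05 in the paired model. The 12 genes span 410075 to 739847 bases, and none of the 20 genes of at least 1 Mb is among them.

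Within the long genes, a longer listed span did not go with a lower level after ablation. The 59 members of 400 to 500 kb had a median log2 fold change of -0.05, the 69 members of 500 to 1000 kb also -0.05, and the 20 members of at least 1 Mb 0.08. None of those 20 passed the threshold, 2 had an unadjusted p under 0.05 with lower and 2 with higher levels in the paired model. These size limits were chosen after the values were seen. The class of at least 1 Mb had a lower median of the mean count, 191.3, against 348.9 and 360.3 in the other classes. It holds genes with much shorter principal transcripts, such as Fgfr2 (102482 bases), Nrg1 (100524 bases) and Auts2 (178817 bases). Of the 6 longest, Dmd, which codes for dystrophin, was higher in 6 of 6 pairs at 0.20 (control 216.2 to 307.0, ablation 242.7 to 327.6, adjusted p = 0.168). Ptprd (0.08), Macrod2 (0.10), Fhit (0.08), Rbfox1 (-0.13) and Fgfr2 (0.10) had adjusted p-values of 0.451 or higher. The fragile site genes Wwox (0.03, adjusted p = 0.854) and Immp2l (0.05, 0.859) did not pass either. Of the members just above 400 kb, Dst had a log2 fold change of -0.10, Dock4 of 0.19 and Hivep3 of -0.05. The tested genes just under it were Plxdc2 (399535 bases) at 0.10, Adk (395995 bases) at 0.00 and Esr1 (394021 bases) at -0.09.

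The members were then sorted by known function, with classes assigned from gene names after the values were seen. In vesicle and membrane traffic, 14 of 20 genes were lower and the median log2 fold change was -0.16. Exoc4 and Vps13b passed in the paired model, and 13 of the 20 had an unadjusted p under 0.05, of which 11 were lower. Of all genes tested, 17.6% had such a p and 8.86% were lower with it. Of the 148 long genes these were 32.4% and 23.6%. Of the 74 long genes with more counts they were 40.5% and 29.7%. The median of the mean count was 825.9 in this class, against 302.4 in all long genes. Its Rab and Arf regulators could also have been placed with the GTPase regulators, and the synapse scaffold gene Gphn in another class. Of the 11 genes of the class with such a p that missed the adjusted threshold, 9 were lower and 2 higher. The lower ones included -0.28 for the Rab GTPase regulator Tbc1d5 (adjusted p = 0.0846), -0.21 for the Arf regulator Agap1 (0.0914), -0.19 for Trappc9 (0.0644) and -0.36 for the dynamin Dnm3 (0.116), and Bbs9, Dennd1a, Gphn, Mctp1 and Nbea lay between -0.23 and -0.13 (0.136 to 0.277). The higher ones were Psd3 at 0.13 (0.232) and Rabgap1l at 0.13 (0.239). The other exocyst gene among the members, Exoc6b, had 0.07 and was higher in 5 of 6 pairs. In transcription and RNA binding, 22 of 28 genes were lower with a median of -0.08. Maml3 passed there, its relative Maml2 was lower in 6 of 6 pairs at -0.21 (adjusted p = 0.123), and Mecom, a zinc finger regulator, had 0.25 (0.0642).

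Adhesion, surface receptor and matrix genes were spread widely. Of 29 such genes 17 were lower, the median was -0.01, and 3 passed (Tenm4, Thsd4 and Ptprg). The 3 receptor phosphatases related to Ptprg did not pass, with log2 fold changes of -0.14 for Ptprk (adjusted p = 0.298), 0.08 for Ptprd (0.456) and 0.00 for Ptprm (0.986). Of 24 cytoskeletal genes and GTPase regulators 12 were lower, with a median of -0.01, and Bcas3 and Kif26b passed in opposite directions. The formin genes Diaph2 and Diaph3 had -0.25 (adjusted p = 0.107) and 0.07 (0.552). Among 11 kinases, phosphatases and second messenger enzymes 5 were lower and Ppp2r2b passed, while Cdk14, a cyclin-dependent kinase of Wnt signaling, had -0.24 with an adjusted p of 0.0511. Of 8 transporters and channels, 4 were lower, and Slc9a9 and Slc7a11 passed in opposite directions. None of the 15 enzymes and repair genes passed, with 7 lower and log2 fold changes from -0.38 (Cpq) to 0.26 (Sugct). Of the 13 members not assigned to a class, 7 were lower and Samd12 passed.

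As a group, the long genes sat slightly lower after ablation, with a median log2 fold change of -0.05 over the 148 genes and 88 of them (59.5%) lower. The shorter genes were weighted over 10 bins of mean log2 count so that their counts followed those of the long genes. Their weighted median was 0.00, and 50.6% were lower. The median size of the fold change, without its sign, was 0.13 in long genes and 0.08 in the weighted shorter genes, and the median SD between pairs was 0.24 and 0.19. In the paired model, 8.11% of long genes and 0.798% of weighted shorter genes passed the threshold. These are descriptions of the lists, and no test of the group was made.

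The group median was not the same in each pair. It was -0.12 in pair 5 and in pair 4, -0.06 in pair 1 and -0.04 in pair 7, but 0.01 in pair 6 and 0.05 in pair 3. The weighted shorter genes stayed between -0.01 and 0.02 in the 6 pairs. The percentage of long genes that were lower was 67.6% in pair 5, 64.2% in pair 4, 57.4% in pair 7, 55.4% in pair 1, 49.3% in pair 6 and 46.6% in pair 3. So in pairs 3 and 6 the long genes as a group were not lower. Each of the 9 genes that fell was lower in those pairs too, but these genes were picked from the same pairs. The mean of the 6 pair medians was -0.05, and the SD between them, 0.07, was larger.

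**Figure D4:**
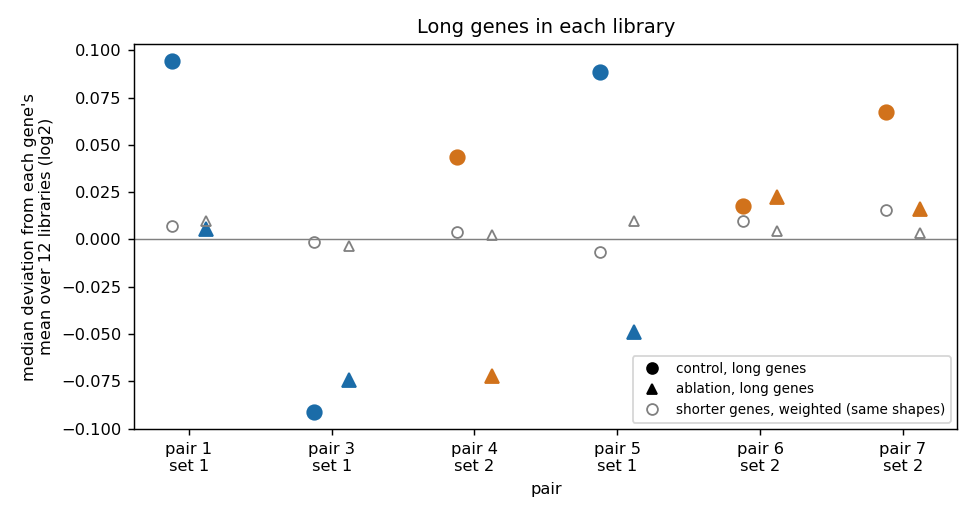
Median over the 148 long genes (filled) and over count-weighted shorter genes (open) of the deviation from each gene's mean over 12 libraries, in log2 units, for control (circles) and ablation (triangles) libraries by pair. Control libraries of pairs 1 and 5 are highest and that of pair 3 is lowest, while shorter genes stay near 0 in all libraries.

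Control libraries themselves differed in their long genes. Taken as the median deviation from each gene's mean over 12 libraries, the long genes were at 0.09 in controls 1 and 5, 0.07 in control 7, 0.04 in control 4, 0.02 in control 6 and -0.09 in control 3. After ablation they were at 0.02 in libraries 6 and 7, 0.01 in library 1, -0.05 in library 5 and -0.07 in libraries 3 and 4. The mean was 0.04 ± 0.069 in control and -0.03 ± 0.045 after ablation (SD, n = 6 each). The 2 groups overlapped, and pair 3, harvested on culture day 20, was low in both. The same deviation in weighted shorter genes was between -0.01 and 0.02 in all 12 libraries.

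**Figure D5:**
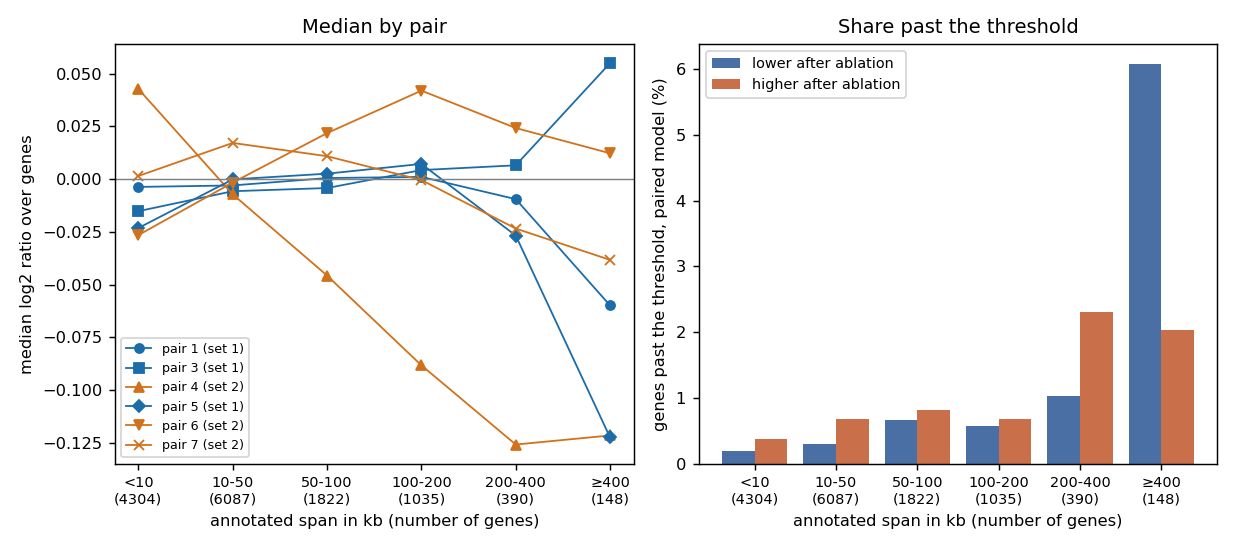
Left, median log2 ratio over the genes of each span class in each of the 6 pairs; right, percentage of genes of each class past the threshold in the paired model, lower (blue) and higher (orange) after ablation. Number of genes is in parentheses. Pairs spread most at 400 kb and above, and the lower share is 6.08% there.

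Over classes of span, the share of genes past the threshold in the paired model was 0.558% for spans under 10 kb (24 of 4304 genes), 0.969% for 10 to 50 kb (59 of 6087), 1.48% for 50 to 100 kb (27 of 1822), 1.26% for 100 to 200 kb (13 of 1035), 3.33% for 200 to 400 kb (13 of 390) and 8.11% for the long genes. In the class of 200 to 400 kb, 4 of the 13 were lower and 9 higher, against 9 lower and 3 higher among the long genes, a difference that was not tested. The median log2 fold change was -0.03 there and between -0.01 and 0.00 in shorter classes. In pair 4 the median ratio was lower in each longer class up to 200 to 400 kb, from 0.04 under 10 kb to -0.13. In the other 5 pairs the medians of the classes under 200 kb stayed between -0.03 and 0.04, and those above spread apart. In pair 6 the medians ran the other way up to 200 kb, from -0.03 under 10 kb to 0.04 at 100 to 200 kb, and were 0.02 at 200 to 400 kb and 0.01 in the long genes.

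Because long genes also have long transcripts, genes were compared within classes of exon length, without matching for count. Members with 4 to 8 kb of exon had a median log2 fold change of -0.04 (35 genes), against 0.00 in 3433 genes spanning under 50 kb with as much exon. With 8 to 12 kb of exon the medians were -0.10 (31 members) and 0.01 (624 genes), and with 12 kb or more -0.03 (73 members) and 0.04 (91 genes). Under 4 kb of exon they were -0.04 (9 members) and -0.01 (6243 genes). In every class the members had fewer counts, with a median mean count of 511.1 against 1736 at 8 to 12 kb. Members with a mean count at or above their own median included 10 of the 12 genes past the threshold, and the median log2 fold change was -0.06 among these 74 and -0.02 among the 74 with fewer counts. The 114 members whose principal transcript spans at least 400 kb had a median of -0.04, with 8 genes lower and 2 higher past the threshold. In the paired model 41 of these 114 (36.0%) had an unadjusted p under 0.05, 31 lower and 10 higher. Of the other 34 members 7 (20.6%) did, 4 lower and 3 higher, against 17.6% of all genes. This difference was not tested. All 5 members whose groups did not overlap were among the 114. Among the 9 members under 400 kb in RefSeq, 3 were lower, the median was 0.10, and Slc7a11 alone passed.

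Genes of elongation and termination by RNA polymerase II and of DNA topoisomerases were examined from a fixed list of 40, of which 39 were tested. None passed in the paired limma model (0% against 1.09% of all genes), and 6 (15.4%) had an unadjusted p under 0.05, against 17.6% of all genes. Of these 6, 2 were lower (5.13% of the list, against 8.86% of all genes) and 4 higher (10.3%, against 8.78%). On the 9 libraries with recovered reads edgeR and DESeq2 called 0 genes of the list each, against 0% and 0.116% of all genes. The cyclins of the elongation kinase P-TEFb, Ccnt2 and Ccnt1, had log2 fold changes of 0.18 (adjusted p = 0.135, paired limma) and 0.10 (0.233). The DNA topoisomerase Top1 had 0.10 (0.177) and Scaf8 had 0.08 (0.272). Leo1, a subunit of the PAF complex, and Tcea1, which rescues stalled polymerases, had -0.10 and -0.11 (0.223 each). The list's median log2 fold change was 0.00, with 20 of 39 lower, and the largest subunit of the polymerase, Polr2a, had 0.04 (0.679).

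Lastly, library sets were compared. Passage and culture dates mostly differed between the sets, but pair 5 of set 1 and pair 4 of set 2 shared a passage. The parts of run, passage and culture date in a difference between sets were not separated. Of the long genes 2 passed (1.35%, against 0.95% of all genes tested), both lower in set 2 with condition in the model. Snd1 had a log2 difference of -0.23 (adjusted p = 0.0441, limma) and the FERM domain gene Frmd4a one of -0.52 (0.0488). Frmd4a had 249.7 to 285.7 normalized counts in the 3 ablation libraries of set 1 and 167.4 to 185.6 in those of set 2, while its log2 fold change with ablation was -0.02.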

How the data were processed

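Poly(A) RNA of 12 libraries (6 ablation, 6 control) was sequenced with a stranded kit and processed by the authors with bcl2fastq and nf-core/rnaseq against the GENCODE annotation of GRCm38.p6. The signal values used are the normalized counts as deposited, for which the authors divided the counts of each library by a DESeq2 size factor. The deposited table also holds the authors' log2 fold changes, score columns (standard errors and Wald statistics) and p-values, none of which were used. The batch of the authors' 2-factor model is not named and was taken as the library set. Genes reaching 10 normalized counts in 6 or more libraries were tested with limma 3.58.1 in R 4.3.3 on log2(normalized count + 1), with trend and robust estimation and Benjamini-Hochberg adjustment at 0.05. Titles give libraries of 1 number the same passage, day and date, and their deviations from the group means correlated in each pair (0.199 to 0.578 across genes), so the paired fit is given beside the first. The members, lists and tests were chosen with earlier results of these data known. Named genes were Slc9a9 and Tenm4, all members past the threshold, the 8 highest counts, the 6 longest spans, the 3 nearest on each side of 400 kb, the 10 largest fold changes with 1 direction in 6 pairs, the 5 largest pair SDs, members the study names, and up to 5 differing between library sets. Other genes named were chosen after their values were seen.

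Normalized values were whole multiples of 1 step in each library (100% within 0.1 read). Whole reads were recovered for 9 libraries. The steps of ablation 3, ablation 4 and control 4 were too near 1 to be accepted. edgeR 4.0.16 and DESeq2 1.42.0 were run on the 9 as alternatives. The limma steps were tested on simulated data first. Spans, principal transcripts, exon overlaps and junction sequences came from GENCODE M21, whose spans equal the listed ones in 145 of 148 members, and RefSeq spans from GRCm38.p6. Other alternatives were pseudocounts of 0.5 and 10, no count filter, quantile and TMM scaling, plain moderation, each pair left out and each library set alone. The results of 1 further marker list are not reported here.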

Additional observations from a re-analysis of the deposited data

Results flagged for a closer look

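Among 36 named long genes, each group of 6 libraries was searched for a value far from the others (Dixon's test), which chance flags in about 1 of 20 groups. Of 72 groups 6 were flagged. Exoc4 had 1653 normalized counts in ablation 7, against 1819 to 1920 in the other ablation libraries. Grm8 had 1.91 in control 5, against 10.5 to 21.2. Pard3 was high in both libraries of pair 1, with 6020 in ablation 1, against 4606 to 4966, and 5376 in control 1, against 4628 to 4854. Ptprk had 4512 in control 6, against 5359 to 5680, and Vps13b 2250 in control 3, against 2536 to 2649.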

How the results depend on the processing

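With the library set as second factor, 0 long genes passed, with 31 at an unadjusted p under 0.05. The count was 12 with the replicate block, 1 (Tenm4) without the count filter and 1 (Tenm4) in DESeq2 on 9 libraries. It stayed at 0 with edgeR (24 at an unadjusted p under 0.05), the other scalings and pseudocounts, and each replicate left out (0 to 0). In the paired model, the 12 became 0 with plain moderation, 2 in library set 1 and 3 in library set 2, and 0 to 13 on leaving out a replicate, the 0 being without pair 4. With no count filter, over 28534 genes, all 12 still passed in the paired model. Mecom, Tbc1d5, Cdk14, Agap1, Diaph2 and Dnm3 then also passed (adjusted p = 0.00991 to 0.0476, limma). The share of all genes past the threshold in that fit is not given here. For differences between library sets, 2 became 0 in control libraries only and 0 in ablation libraries only. Fits on 1 library set, 1 condition or 9 libraries hold fewer samples, and for the other changes the cause was not tested. The mean of pair medians of the long genes, -0.05, lay between -0.07 and -0.03 on leaving out a replicate, was -0.02 for spans of at least 500 kb, -0.04 for at least 300 kb, and -0.06 for members with a long principal transcript, an alternative added after the data were seen.

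Some named genes that passed in no comparison of ablation with control changed direction. On leaving out a replicate, the log2 fold change ranged from -0.035 to 0.38 in Dock4, -0.31 to 0.26 in Esrrg, -0.054 to 0.25 in Fhit, -0.096 to 0.012 in Frmd4a, -0.38 to 0.39 in Grm8, -0.16 to 0.011 in Hivep3, -0.010 to 0.051 in Nfib and -0.36 to 0.063 in Xkr4, the same in both models. With quantile scaling it was -0.032 in Esrrg and 0.0033 in Frmd4a. On recovered reads, edgeR and DESeq2 gave 0.42 and 0.43 for Grm8 and 0.084 and 0.088 for Hivep3. In library set 1 alone it was -0.43 in Esrrg, -0.0746 in Fhit, 0.054 in Frmd4a, 0.47 in Grm8, 0.046 in Rbfox1 and 0.40 in Xkr4, and in set 2 alone -0.21 in Dock4, -0.0156 in Fgfr2 and -0.0046 in Pard3. The block changed no other call. Members near 10 counts are limited by depth.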
